A study of Homo sapiens with 6 samples.

Results

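Collagen genes, the rows of the deposited table whose symbol is COL, a number, A and a number, made up 44 of the 19655 genes in the table. HCT116, a human cell line established from a colorectal carcinoma, is the label of the cells, whose total RNA was sequenced in 2 groups of 3 libraries: ASO, in which the small nucleolar RNA SNORA67 was the target of a transfected antisense oligonucleotide, and NC, labelled as control. Such an oligonucleotide base-pairs with its target RNA, which can then be cut by cellular RNase H. Neither the treatment of the NC cells, nor dose, time or separate cultures for the 3 libraries, is stated in the labels, and the spread that p-values measure may thus be technical. SNORA67 levels were not analysed here, which leaves the knockdown unchecked, and the host gene EIF4A1 had 617 ± 46.3 CPM (counts scaled to a total of 1000000 per library) in ASO against 1544 ± 55.3 CPM in NC (SD, n = 3 each).

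Collagens are secreted or membrane-bound proteins built from 3 chains wound into a triple helix, in which glycine recurs at regular positions and many prolines are hydroxylated. Fibrillar collagens form the banded fibres of connective tissue, network collagens form sheets such as the basement membrane under epithelia, and the rest decorate fibrils, anchor the epithelium, form beaded filaments or span the cell membrane. Fibrillar and basement membrane collagens make up much of the matrix around colorectal tumours, where fibroblasts are known as a main source and carcinoma cells also make some. The comparison asked which collagen genes differed between ASO and NC, by these classes.

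Of the 44 collagen genes, 39 had a count in at least 1 library and 34 had enough counts to be tested. In ASO, 19 were higher than in NC, 4 were lower and 11 did not pass the threshold, an adjusted p of 0.05 from the quasi-likelihood test of edgeR. Among all 14062 genes tested, 26.8% were called higher and 19.1% lower. The median log2 fold change was 0.67 over the tested collagens and 0.01 over all genes tested. Fibrillar collagens were higher in 7 of 8 tested genes, network collagens in 2 of 8 and other collagens in 10 of 18. The filter on low counts bears on these numbers, since 7 of the 19 higher genes had enough counts in the ASO libraries only and 1 of the 4 lower genes in the NC libraries only. Of the 24 genes with enough counts in all 6 libraries, 12 were higher, 3 were lower and 9 did not pass, with a median log2 fold change of 0.32.

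All levels are CPM after TMM scaling, the trimmed-mean method of edgeR. The most frequent count above 0 was 4 in every library, at 226 to 296 genes against 74 to 121 genes with 3 counts. From this, 1 sequenced fragment was taken as worth about 4 counts, an inference that the labels do not state and on which the detection limits, fold bounds and fragment ratios depend. The smallest amount taken as detected was 3 fragments, or 12 counts per library, which is 0.235 CPM on average in ASO and 0.228 CPM in NC. The column totals were 49136502 to 54905215 counts in ASO and 50728524 to 53715905 counts in NC. Even so, 15452 to 15665 genes had a count in each ASO library and 13934 to 13995 in each NC library. Collagens at or near 0 in NC, such as COL2A1, COL6A6, COL20A1 and COL8A2, moved with this difference, whose part in their values was not tested. The fold changes of all genes moved with GC content: among genes averaging 1 CPM or more, the median log2 fold change was -0.35 under 45% GC and 0.35 at 65% or more. Tested collagens had a median of 60.7% GC, against 50.7% for all genes tested. With the trend on GC content and transcript length removed, 18 collagens were higher and 9 lower, beside 30.7% and 21.4% of all genes tested in that fit, and the median log2 fold change was 0.55 over the collagens and 0.07 over all genes. The lower calls also moved with single libraries: there were 2 without ASO library 2 or without NC library 2, and 1 without ASO library 3 or without NC library 1.

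Collagen transcripts held 0.797% ± 0.0453 of all counts in ASO and 0.483% ± 0.0340 in NC (SD, n = 3 each). Summed over the 44 genes, the level was 8571, 7360 and 8142 CPM in ASO libraries 1 to 3, against 4881, 4395 and 5139 CPM in NC libraries 1 to 3. Every ASO library was above every NC library, by 1.67-fold on the means, and the sum was not tested. The fibrillar sum was 1.66-fold higher in ASO, at 3181 ± 227 CPM against 1918 ± 111 CPM in NC. The sum of the other collagens was 1.86-fold higher, at 3950 ± 320 CPM in ASO and 2119 ± 220 CPM in NC. Most of that difference lay in COL7A1, at 2786 ± 244.5 CPM in ASO and 995.5 ± 126 CPM in NC. The network sum differed least, at 894 ± 68.8 CPM in ASO and 768 ± 49.5 CPM in NC. In bulk RNA, more cells with a transcript and more of the transcript per cell cannot be told apart.

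**Figure D1:**
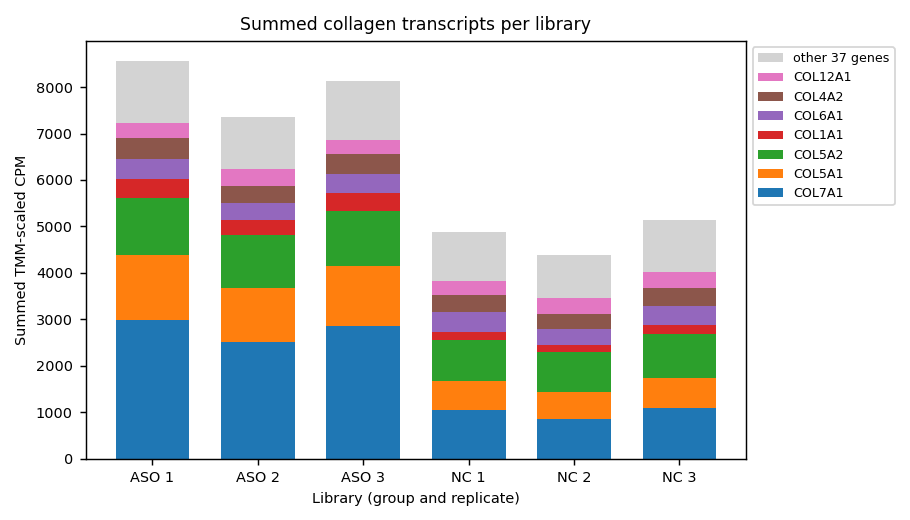
Summed collagen level in each of the 6 libraries, in TMM-scaled CPM on a linear axis from 0, with the 7 most abundant genes as coloured segments and the other 37 genes in grey. The ASO bars reach 7360 to 8571 CPM and the NC bars 4395 to 5139 CPM, and the COL7A1 segment takes 34.7% of the mean ASO bar and 20.7% of the mean NC bar.

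COL7A1 (chromosome 3, 48564073 to 48595329, minus strand) encodes the chain of type VII collagen, which forms the anchoring fibrils that tie the basement membrane to the tissue below. It had 2985, 2513 and 2860 CPM in ASO libraries 1 to 3, against 1035, 854 and 1097 CPM in NC libraries 1 to 3. The lowest ASO library was well above the highest NC library. The rise was 2.80-fold (log2 fold change 1.48, SE 0.11, edgeR adjusted p = 4.59e-05) and was called under all 17 alternative settings. It was 1.98-fold (log2 fold change 0.99) with the GC and length trend removed. COL7A1 took 34.7% ± 0.508 of collagen counts in ASO and 20.7% ± 1.07 in NC (SD, n = 3 each). Without it, the other 43 genes held 0.520% of all counts in ASO and 0.383% in NC. Per kilobase of transcript it ranked first among the collagens in ASO, at 300.4 CPM per kb, and second in NC, at 107 CPM per kb, behind COL5A2. UQCRC1, the gene that ends 3735 bases upstream on the same strand, had 342 ± 36.5 CPM in ASO and 334 ± 31.7 CPM in NC (edgeR adjusted p = 0.814).

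The bases before the COL7A1 start are shown because COL7A1 was the most abundant collagen in ASO. They are 250 bases of RefSeq build GRCh38.p14, chr3:48595330-48595579, minus strand, read 5′ to 3′ towards the start, with matches to the searched motifs in capitals.
COL7A1: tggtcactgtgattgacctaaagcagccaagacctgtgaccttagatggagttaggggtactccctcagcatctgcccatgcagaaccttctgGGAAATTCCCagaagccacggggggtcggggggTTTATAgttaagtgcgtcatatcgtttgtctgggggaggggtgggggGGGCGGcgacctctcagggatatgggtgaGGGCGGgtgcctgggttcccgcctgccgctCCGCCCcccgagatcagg
The capitals mark a match to the NF-kB element, a match to the TATA box TATAAA on the opposite strand and 3 matches to the GC box GGGCGG. Both strands were searched in all RefSeq windows, from 250 bases before to 50 after each start. The NF-kB element matched in 0.558% of all 35116 windows, and COL7A1 was the 1 collagen gene with it among the 32 with a window. A wider NF-kB consensus matched in 11.4% of collagen windows, those of COL7A1 and 4 other genes, and in 11.3% of all windows. The GC box matched in 24 of 44 collagen windows and 15786 of all windows, the CCAAT box CCAAT in 31.8% and 34.6%, and TATAAA in 18.2% and 11.5%. The AP-1 element TGANTCA matched in 2.27% of collagen windows (COL10A1) and 7.71% of all windows. Such matches describe letters and not bound sites.

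Among fibrillar collagens, 7 of the 8 tested genes of 11 rose in ASO and COL5A3 did not pass. None fell by edgeR, DESeq2 or limma-voom, adjusted or at an unadjusted p under 0.05. With the GC and length trend removed, COL5A3 was called lower. The 7 rises were called under all 17 alternative settings, which include leaving out each library. COL2A1, among the 7, passed the filter on low counts through the ASO libraries only.

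Type V collagen sets the diameter of fibrils and is built from the chains of COL5A1, COL5A2 and COL5A3. COL5A1 (chromosome 9) had 1404, 1155 and 1281 CPM in ASO libraries 1 to 3, against 627, 574 and 635 CPM in NC libraries 1 to 3. The groups were far apart, and the rise was 2.09-fold (log2 fold change 1.07, edgeR adjusted p = 8.65e-05). COL5A2 (chromosome 2) had 1219, 1153 and 1186 CPM in ASO against 896, 877 and 958 CPM in NC. It rose less, by 0.38 on the log2 scale (edgeR adjusted p = 0.00321), again with no overlap. COL5A3 (chromosome 19) had 119, 98.7 and 110 CPM in ASO against 124, 116 and 137 CPM in NC. These groups overlapped, and the log2 fold change was -0.20 (edgeR adjusted p = 0.154), or -0.60 with the GC and length trend removed (edgeR adjusted p = 0.000111).

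COL1A1 (chromosome 17), a chain of type I collagen, the main fibril of bone, skin and tumour stroma, had 406, 328 and 389 CPM in ASO against 164, 138 and 179 CPM in NC. All ASO libraries were above all NC libraries, and the rise was 2.33-fold (log2 fold change 1.22, edgeR adjusted p = 0.000204). The log2 fold change was 0.88 with the GC and length trend removed. COL1A2 encodes the partner chain of the usual type I trimer, and it was at or under the detection limit in all 6 libraries, with 8 counts in NC library 2 and 0 in the other 5. COL1A2 was therefore not tested, and its ratio to COL1A1 was not formed. COL27A1 (chromosome 9), a fibrillar chain known from cartilage, had 219, 181 and 201 CPM in ASO against 106, 96.0 and 112 CPM in NC. Its rise was 0.93 on the log2 scale (edgeR adjusted p = 0.000343), with no overlap, and 0.55 with the GC and length trend removed.

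COL11A2, COL3A1 and COL2A1 were low in NC. COL11A2 (chromosome 6), a chain of the cartilage type XI collagen, had 27.1, 25.4 and 30.8 CPM in ASO against 5.00, 3.53 and 4.52 CPM in NC. The lowest ASO library exceeded the highest NC library several times over, and the rise was 6.39-fold (log2 fold change 2.67, edgeR adjusted p = 2.58e-05). It was 4.91-fold with the GC and length trend removed. RXRB, which ends 1089 bases upstream on the same strand, had 69.8 ± 6.88 CPM in ASO and 74.6 ± 7.85 CPM in NC (edgeR adjusted p = 0.543). COL3A1, a chain of distensible tissues such as vessel wall and gut, had 1.88, 2.92 and 2.08 CPM in ASO against 0.604, 0.588 and 0.555 CPM in NC, a 3.93-fold rise (edgeR adjusted p = 0.00255) with no overlap. COL2A1, the chain of the main cartilage fibril, had 1.19, 1.24 and 0.940 CPM in ASO and 0 counts in all NC libraries. Against the limit of 12 counts per NC library it was at least 4.93-fold higher in ASO (edgeR adjusted p = 0.00102). COL11A1 was at 0 in all 6 libraries, and COL24A1 had 3 counts in each group.

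**Figure D2:**
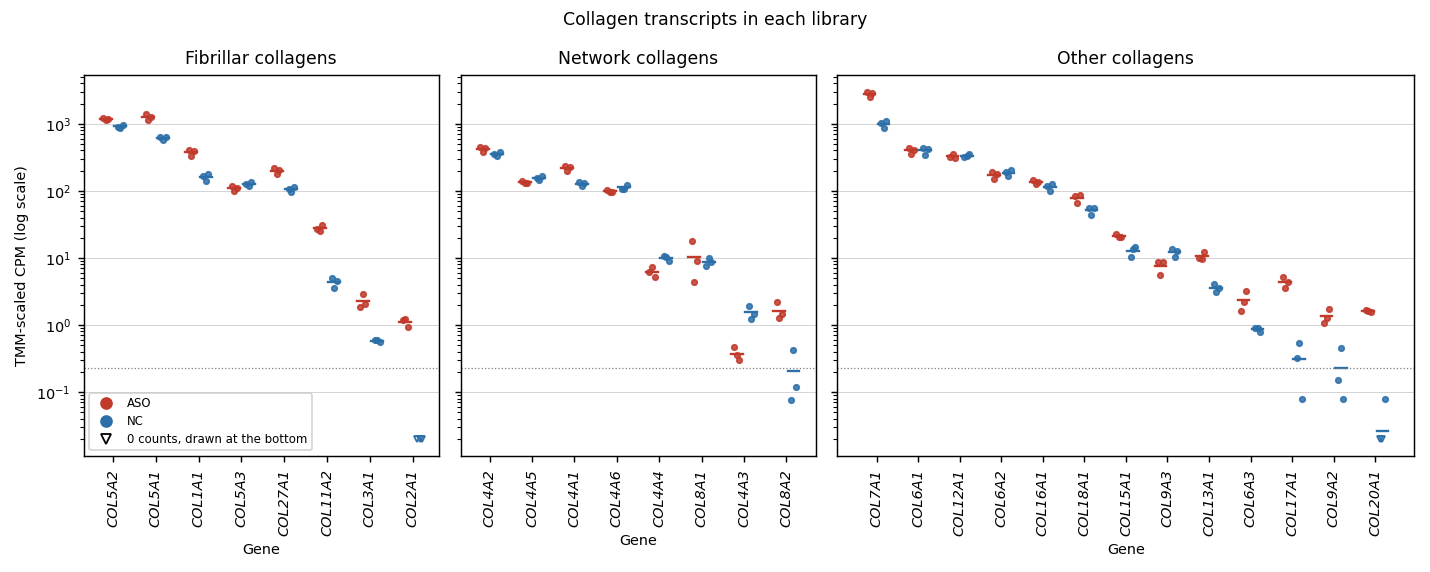
Level of each collagen gene with a mean of 1 CPM or more in either group, in TMM-scaled CPM on a log axis, by class. Points are libraries, ASO left of NC, short lines are means of 3 libraries, triangles are libraries at 0 counts and the dotted line is the detection limit of 0.228 CPM in NC. ASO points stand above NC points for COL7A1, COL5A1, COL1A1 and COL11A2, while COL6A1 and COL12A1 lie side by side.

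Network collagens were split, with 2 of 8 tested genes higher, 2 lower and 4 that did not pass. COL8A2, among the 2 that were higher, passed the filter on low counts through the ASO libraries only. One gene stayed lower without ASO library 3, without NC library 1 or without NC library 2, and 4 were called lower with the GC and length trend removed. Their summed share of collagen counts was 11.1% ± 0.02 in ASO against 16.0% ± 0.284 in NC (SD, n = 3 each).

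Type IV collagen is the network of all basement membranes, and its 6 genes lie in 3 head-to-head pairs whose starts face away from each other across a short stretch of DNA. RefSeq places 126 bases between the starts of COL4A1 and COL4A2 on chromosome 13, 418 between those of COL4A4 and COL4A3 on chromosome 2, and 379 between those of COL4A5 and the nearer of the 2 listed starts of COL4A6 on chromosome X. The stretch for each pair is shown because the pairs moved differently, in full for the first and as the 250 bases before the plus-strand gene for the other 2, with matches to the searched motifs in capitals. They are chr13:110307158-110307283, chr2:227164374-227164623 and chrX:108439588-108439837 of RefSeq build GRCh38.p14, plus strand, read 5′ to 3′.
COL4A1 and COL4A2: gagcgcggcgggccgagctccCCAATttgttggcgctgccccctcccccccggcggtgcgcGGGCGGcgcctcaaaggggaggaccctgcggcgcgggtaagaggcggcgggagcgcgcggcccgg
COL4A3: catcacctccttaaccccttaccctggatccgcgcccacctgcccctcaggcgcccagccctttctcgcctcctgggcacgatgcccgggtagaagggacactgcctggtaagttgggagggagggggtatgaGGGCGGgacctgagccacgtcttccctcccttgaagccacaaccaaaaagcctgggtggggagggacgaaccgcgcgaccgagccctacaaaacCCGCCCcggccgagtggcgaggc
COL4A5: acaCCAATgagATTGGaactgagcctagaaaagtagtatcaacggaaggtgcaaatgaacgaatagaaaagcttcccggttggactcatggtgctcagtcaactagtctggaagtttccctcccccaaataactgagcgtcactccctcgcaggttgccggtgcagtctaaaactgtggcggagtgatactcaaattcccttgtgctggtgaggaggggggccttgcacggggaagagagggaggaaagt
The capitals mark 1 CCAAT and 1 GC box match in the stretch between COL4A1 and COL4A2, 2 GC box matches before COL4A3 and 2 CCAAT matches before COL4A5.

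COL4A1 and COL4A2 encode the chains of the common type IV trimer. COL4A1 had 232, 201 and 225 CPM in ASO libraries 1 to 3, against 135, 116 and 132 CPM in NC libraries 1 to 3. All ASO libraries were above all NC libraries, and it rose 1.72-fold (log2 fold change 0.78, edgeR adjusted p = 0.000586). COL4A2 had 453, 381 and 435 CPM in ASO against 354, 326 and 377 CPM in NC. The groups did not overlap, by a margin of a few CPM, and the log2 fold change of 0.26 did not pass (edgeR adjusted p = 0.0511). COL4A2 was called higher in 8 of 17 alternative settings. These were RLE scaling (edgeR adjusted p = 0.0437), library totals (0.0392), DESeq2 (0.0473), limma-voom (0.0465), the replicate block (0.0103), counts divided by 4 (0.0369), and the fits without ASO library 2 (0.00961) or NC library 3 (0.0464), all as adjusted p. Removal of the GC and length trend gave a log2 fold change of -0.10.

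COL4A3 and COL4A4 encode chains of the specialised basement membranes of kidney, lung and inner ear, and both fell. COL4A3 had 0.466, 0.360 and 0.300 CPM in ASO against 1.94, 1.21 and 1.47 CPM in NC, with no overlap. Its ASO libraries held 25, 18 and 15 counts, near the detection limit of 12 counts per library. COL4A3 was 4.08-fold lower (log2 fold change -2.03, SE 0.42, edgeR adjusted p = 0.00603), the 1 lower call among collagens that held under all 17 alternative settings. COL4A4 had 6.16, 7.38 and 5.24 CPM in ASO against 10.8, 10.4 and 9.11 CPM in NC. No ASO library reached an NC library, and the log2 fold change was -0.69 (edgeR adjusted p = 0.0188). Its adjusted p by edgeR was 0.0644 without ASO library 3, 0.0762 without NC library 1 and 0.0630 without NC library 2.

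COL4A5 and COL4A6 encode X-linked chains that pair in other basement membranes, and neither passed. COL4A5 had 141, 131 and 133 CPM in ASO against 154, 147 and 164 CPM in NC (log2 fold change -0.20, edgeR adjusted p = 0.0838). COL4A6 had 104, 94.6 and 97.3 CPM in ASO against 108, 107 and 124 CPM in NC (log2 fold change -0.19, edgeR adjusted p = 0.137). In both genes every ASO library was below every NC library, and with the GC and length trend removed both were called lower, at log2 fold changes of -0.29 and -0.38. COL4A5 was also called lower with library totals and with the replicate block (edgeR adjusted p = 0.0448 and 0.0406).

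**Figure D3:**
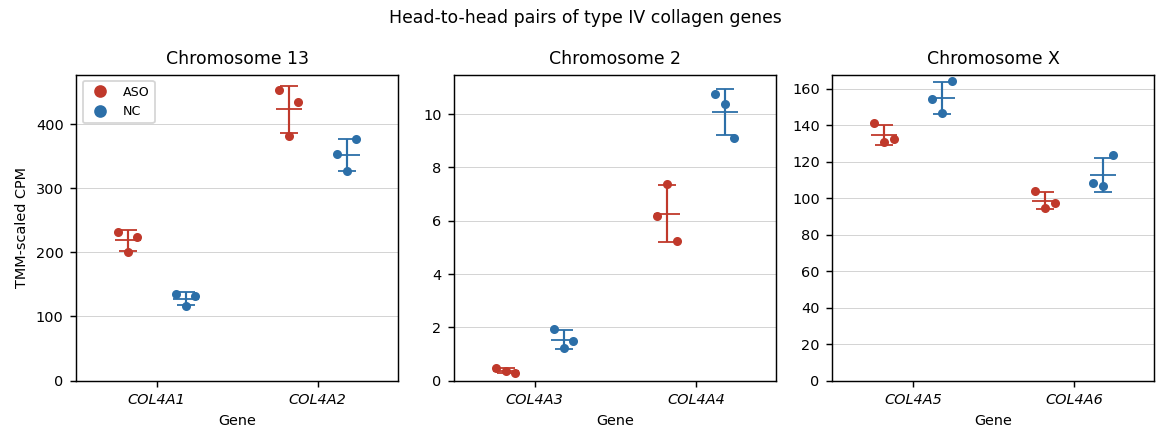
The 6 type IV collagen genes as head-to-head pairs, 1 panel per chromosome, in TMM-scaled CPM on linear axes from 0 whose scales differ. Points are libraries, ASO left of NC, with the mean and SD of 3 libraries. COL4A1 is higher in ASO, COL4A3 and COL4A4 are lower, and COL4A5 and COL4A6 lie a little lower in ASO without passing the test.

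Ratios between partner chains are formed within a library, so library scaling cancels. A GC trend does not cancel where partners differ in GC content, as COL5A1 (60.3%) and COL5A2 (47.9%) or COL4A1 (55.4%) and COL4A2 (62.0%) do. With the GC and length trend removed, the log2 fold changes of COL5A1 and COL5A2 were 0.69 and 0.37, beside 1.07 and 0.38 with it kept. Those of COL4A1 and COL4A2 were 0.56 and -0.10, beside 0.78 and 0.26. The ratios themselves were not corrected. Of 7 listed pairs, 5 had enough counts in both genes, and with 3 libraries against 3 the smallest p an exact permutation test allows is 0.1. The log2 ratio of COL4A1 to COL4A2 averaged -0.95 ± 0.02 in ASO and -1.46 ± 0.06 in NC, without overlap (SD, n = 3 each, exact two-sided permutation p = 0.1, adjusted over 5 pairs 0.167). COL5A1 to COL5A2 averaged 0.11 ± 0.10 in ASO and -0.57 ± 0.05 in NC on the same scale, also without overlap (exact permutation p = 0.1). Type VI filaments are built from COL6A1, COL6A2 and COL6A3 chains, and COL6A3 to COL6A1 averaged -7.46 ± 0.55 in ASO and -8.86 ± 0.25 in NC, without overlap (exact permutation p = 0.1). The groups overlapped for COL4A5 to COL4A6, at 0.45 ± 0.01 in ASO and 0.46 ± 0.05 in NC, and for COL6A1 to COL6A2, at 1.22 ± 0.02 in ASO and 1.12 ± 0.09 in NC (exact permutation p = 0.8 and 0.2).

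Type VIII collagen forms a hexagonal network under endothelium and in the eye. COL8A1 had 17.6, 4.32 and 8.84 CPM in ASO against 7.51, 9.85 and 8.72 CPM in NC. The ASO libraries lay on both sides of the NC libraries, and the log2 fold change of 0.24 did not pass (edgeR adjusted p = 0.684) and was -0.40 without ASO library 1. COL8A2 had 2.20, 1.28 and 1.44 CPM in ASO against 0.0755, 0.423 and 0.119 CPM in NC, with 2 of the 3 NC libraries under the detection limit, and it rose (log2 fold change 2.97, SE 0.67, edgeR adjusted p = 0.00868). Without NC library 2 the log2 fold change was 4.06. COL10A1, the chain of growth-plate cartilage, had 13 counts over the ASO libraries and 4 over the NC libraries and was not tested.

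In the remaining class, 10 of 18 tested genes rose, 2 fell and 6 did not pass. Of the 10, COL17A1, COL23A1, COL9A2, COL20A1 and COL6A6 passed the filter on low counts through the ASO libraries only. COL26A1, among the 2 that fell, passed it through the NC libraries only. Without ASO library 2, ASO library 3 or NC library 1 no gene of this class was called lower, and 1 was without NC library 2 or NC library 3. With the GC and length trend removed, 9 were higher and 4 lower.

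Transmembrane collagens, which sit in the cell membrane with an outer triple helix, were higher in 3 of 4 genes, of which COL17A1 and COL23A1 passed the filter on low counts through the ASO libraries only. COL17A1, the chain of the hemidesmosome that holds epithelial cells to the basement membrane, had 5.27, 3.50 and 4.32 CPM in ASO against 0.321, 0.533 and 0.0792 CPM in NC. Every ASO library was far above the NC libraries, of which NC library 3 was under the detection limit, and the rise was 13.9-fold (log2 fold change 3.79, SE 0.55, edgeR adjusted p = 0.00121), or 4.43 on the log2 scale without NC library 2. COL13A1, found at cell adhesions and the neuromuscular junction, had 9.89, 9.63 and 12.4 CPM in ASO against 4.06, 3.11 and 3.55 CPM in NC, and rose by 1.58 on the log2 scale (edgeR adjusted p = 0.000593). COL23A1 had 26, 17 and 27 counts in ASO against 1, 2 and 4 counts in NC, all NC libraries being under the detection limit (edgeR adjusted p = 0.00872). COL25A1, known from neurons and motor axons, was near the detection limit and did not pass.

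Multiplexins, which lie at basement membranes and release fragments known to act on vessels, were higher in both genes. COL15A1 had 22.8, 20.4 and 20.8 CPM in ASO against 10.4, 13.5 and 14.4 CPM in NC, with no overlap (log2 fold change 0.74, edgeR adjusted p = 0.00743). COL18A1, the source of endostatin, had 82.5, 64.7 and 87.8 CPM in ASO against 56.1, 44.1 and 55 CPM in NC. These groups did not overlap either (log2 fold change 0.60, edgeR adjusted p = 0.0131). The COL18A1 call ended without ASO library 3 (adjusted p = 0.0569 by edgeR) and with the GC and length trend removed, where its log2 fold change was 0.15 (adjusted p = 0.115 by edgeR). COL18A1 shares 16.4% of its annotated exon bases with SLC19A1 on the opposite strand, and without a stated strand setting their reads cannot be told apart. SLC19A1 had 122 CPM in ASO and 98.1 CPM in NC (edgeR adjusted p = 0.0723).

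Beaded-filament collagens were led by type VI, which links cells to the surrounding fibrils. COL6A1 had 440.2, 348.5 and 412 CPM in ASO against 439, 348 and 427 CPM in NC. The ranges coincided, and the log2 fold change was -0.02 (edgeR adjusted p = 0.930). COL6A2 had 188, 147.5 and 179.5 CPM in ASO against 188, 166 and 202.5 CPM in NC, with overlap (log2 fold change -0.11, edgeR adjusted p = 0.474). With the GC and length trend removed both were called lower, at log2 fold changes of -0.33 and -0.45. COL6A3 had 1.62, 2.18 and 3.20 CPM in ASO against 0.887, 0.900 and 0.792 CPM in NC, and rose by 1.44 on the log2 scale (edgeR adjusted p = 0.0124), a call that ended without ASO library 3 (edgeR adjusted p = 0.0598). COL6A6 had 0.466, 0.941 and 0.220 CPM in ASO and 0 counts in NC, and was at least 2.38-fold higher in ASO against the limit of 12 counts per NC library (edgeR adjusted p = 0.00729). Its ASO library 3, with 11 counts, was under that limit too, and without ASO library 2 the bound was 1.5-fold. COL26A1 was called lower on about 1 fragment in ASO and 16 in NC, an NC to ASO ratio of 15.6 with a 95% exact Poisson interval of 2.42 to 653 (edgeR adjusted p = 0.0225). That call ended when ASO library 2 or 3 or NC library 1 or 2 was left out, at edgeR adjusted p of 0.0576, 0.0735, 0.0715 and 0.0794. It also ended with no filter and with the replicate block (edgeR adjusted p = 0.0699 and 0.0513), and all 4 ASO counts came from library 1. COL6A5 was at 0 in all libraries, and COL28A1 had 6 counts over the ASO libraries and 0 over the NC libraries.

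FACIT collagens coat fibrils without forming them, and 2 of 6 tested genes rose, 1 fell and 3 did not pass. Both that rose, COL9A2 and COL20A1, passed the filter on low counts through the ASO libraries only. COL12A1, which cross-bridges fibrils in dense tissue, had 323, 350.5 and 308 CPM in ASO against 320.1, 331 and 356 CPM in NC, with overlap (log2 fold change -0.04, edgeR adjusted p = 0.736). COL16A1 had 147, 125 and 134 CPM in ASO against 119.5, 99.5 and 127 CPM in NC, also with overlap (log2 fold change 0.23, edgeR adjusted p = 0.137). Cartilage type IX collagen is built from COL9A1, COL9A2 and COL9A3, and the 2 with counts moved in opposite directions. COL9A3 had 8.70, 5.64 and 8.54 CPM in ASO against 13.5, 10.3 and 12.5 CPM in NC, with no overlap (log2 fold change -0.66, edgeR adjusted p = 0.0372). It no longer passed without ASO library 2, ASO library 3, NC library 1 or NC library 3, at edgeR adjusted p of 0.0528, 0.0607, 0.117 and 0.0831. OGFR, which ends 2244 bases upstream of COL9A3 on the same strand, had 70.6 ± 12.1 CPM in ASO and 67.1 ± 3.84 CPM in NC (edgeR adjusted p = 0.696). COL9A2 had 1.06, 1.28 and 1.72 CPM in ASO against 0.151, 0.459 and 0.0792 CPM in NC, with 2 of the 3 NC libraries under the detection limit, and rose by 2.54 on the log2 scale (edgeR adjusted p = 0.0157). That call ended without ASO library 3 or NC library 1 (edgeR adjusted p = 0.0605 and 0.0585), and without NC library 2 the log2 fold change was 3.53. COL9A1 was at 0 in all libraries.

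COL20A1, a little-studied FACIT chain, had 1.70, 1.60 and 1.54 CPM in ASO against 0, 0 and 0.0792 CPM in NC. That is about 62 fragments in ASO and 1 in NC, a ratio of 63.7 with a 95% exact Poisson interval of 11 to 2557 (edgeR adjusted p = 0.00170), and all 4 NC counts came from library 3. ARFGAP1, which ends 3393 bases upstream on the same strand, had 153 ± 18.5 CPM in ASO and 107 ± 49.9 CPM in NC (edgeR adjusted p = 0.226). COL14A1 was near the detection limit and did not pass. COL19A1 and COL22A1 were at 0 in all libraries, and COL21A1 had 32 counts over the ASO libraries and 4 over the NC libraries and was not tested.

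**Figure D4:**
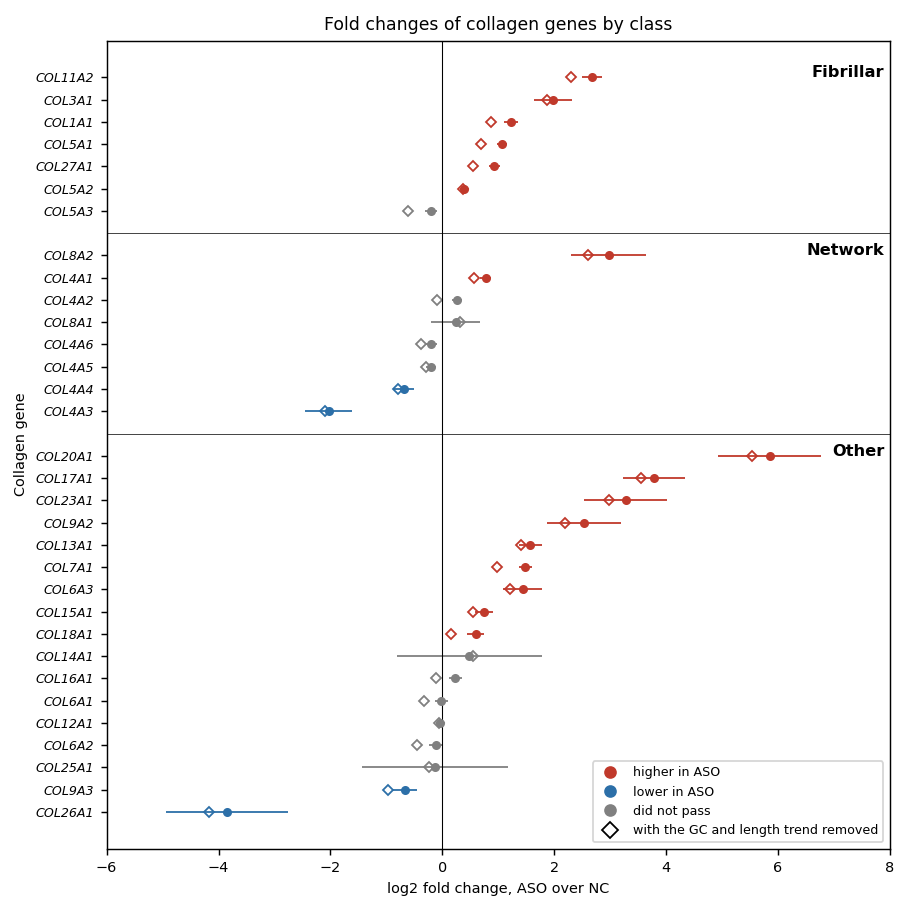
Log2 fold change of each tested collagen gene, ASO over NC, by class, with bars of 1 SE and colours for the edgeR call at an adjusted p of 0.05. Open diamonds give the fit with the GC and length trend removed, and COL2A1 and COL6A6, at 0 in every NC library, are not drawn. Most fibrillar points lie right of 0 and network points lie on both sides. The diamonds lie left of their points for every drawn gene except COL8A1 and COL14A1, in called rises such as COL7A1 too.

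Groups of the 34 tested genes did not overlap in 26 cases, 20 with ASO above NC and 6 with ASO below NC, against 31.6% and 25.9% of all genes tested. Per kilobase of transcript, the leading collagens in ASO were COL7A1 at 300.4, COL5A2 at 168 and COL5A1 at 151 CPM per kb. In NC they were COL5A2 at 129, COL7A1 at 107 and COL6A1 at 95.4 CPM per kb. In NC the means of COL7A1 and COL6A1 per kb were 107 ± 13.6 and 95.4 ± 11.7 (SD, n = 3), and their order was not tested.

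The classes also differed in gene structure, which the rule did not use. A triple-helix repeat of 3 residues takes 9 bases, and 84.2% of the 627 inner coding exons of fibrillar collagens have a length that is a multiple of 9 in GENCODE 29, with 48.6% at exactly 54 bases. Network collagens have 47.5% of 282 inner coding exons at a multiple of 9 and 4.26% at 54 bases. All 282 lie in type IV genes, as COL8A1, COL8A2 and COL10A1 have 0 inner coding exons. The class of other collagens has 56.1% of 1002 at a multiple of 9 and 15.7% at 54 bases. These shares describe the annotation and were not related to the fold changes.

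Of 94 listed genes that make, move, bind or degrade collagen, 93 were in the table, 85 were tested, 24 were higher in ASO and 16 were lower, or 28.2% and 18.8% of those tested, beside 26.8% and 19.1% of all genes. With the GC and length trend removed, 30 were higher and 28 lower, beside 30.7% and 21.4% of all genes in that fit.

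Enzymes and chaperones that hydroxylate and fold the chains in the endoplasmic reticulum were called in 5 of 19 tested genes. Of these, 2 were higher (10.5%, beside 26.8% of all genes tested) and 3 lower (15.8%, beside 19.1%). P3H2, which hydroxylates prolines of basement membrane collagen, had 62.0 ± 5.67 CPM in ASO and 46.0 ± 0.986 CPM in NC (log2 fold change 0.43, edgeR adjusted p = 0.0118), a call that ended without NC library 1 (edgeR adjusted p = 0.0530). CRTAP, a partner of prolyl 3-hydroxylation, fell slightly, to 793 ± 17.8 CPM in ASO against 951 ± 3.87 CPM in NC (edgeR adjusted p = 0.0114). FKBP14, a prolyl isomerase, and TXNDC5, a disulfide isomerase, were called lower at log2 fold changes of -0.45 and -0.22. FKBP14 was not called with the GC and length trend removed or in 4 of the 6 fits that left out a library, and TXNDC5 was not called in 5 of these 6 nor by DESeq2.

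Export genes, which load the long procollagen rods into enlarged COPII carriers, were lower in 6 of 11 tested genes and higher in 2. These are 54.5% and 18.2%, beside 19.1% lower and 26.8% higher among all genes tested. KLHL12, an adaptor of the ubiquitin ligase that enlarges the carriers, had 20.7, 24.1 and 19.9 CPM in ASO against 45.9, 47.8 and 44.0 CPM in NC. All ASO libraries lay below all NC libraries (log2 fold change -1.09, edgeR adjusted p = 0.000307). MIA3, the receptor that recruits procollagen at exit sites, fell by 0.76 on the log2 scale, to 30.9 ± 1.26 CPM in ASO against 52.4 ± 3.97 CPM in NC (edgeR adjusted p = 0.00103). SEC24D, a cargo adaptor of the coat, fell by 0.74 on the same scale, to 18.4 ± 2.02 CPM in ASO against 30.8 ± 3.45 CPM in NC (edgeR adjusted p = 0.00434). LARP6, which binds type I collagen messages, rose to 32.9 ± 3.79 CPM in ASO against 21.3 ± 1.40 CPM in NC (edgeR adjusted p = 0.00653).

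Processing and cross-linking genes were higher in 4 of 10 tested genes (40%, beside 26.8% of all genes tested) and lower in 1 (10%, beside 19.1%). BMP1, the proteinase that trims the end of procollagen, had 204 ± 19.6 CPM in ASO and 144 ± 12.9 CPM in NC (log2 fold change 0.50, edgeR adjusted p = 0.00661). Its log2 fold change was 0.20 with the GC and length trend removed (edgeR adjusted p = 0.00583). The cross-linking oxidases LOX and LOXL2 rose by 0.72 and 0.46 on the log2 scale, or 1.07 and 0.28 with that trend removed. LOXL2 was the more abundant of these per kilobase, at 83.3 CPM per kb in ASO and 60.5 CPM per kb in NC. PCOLCE2, an enhancer of procollagen trimming, fell by 0.54 on the log2 scale (edgeR adjusted p = 0.00770).

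Matrix partners that bind collagen were higher in 4 of 13 tested genes (30.8%, beside 26.8% of all genes tested) and lower in 3 (23.1%, beside 19.1%). THBS1, thrombospondin, had 1644, 1470 and 1510 CPM in ASO against 325, 301 and 328 CPM in NC, a 4.85-fold rise (edgeR adjusted p = 1.32e-06) with the groups far apart. FN1, the fibronectin on which fibrils form, rose 1.83-fold, to 413 ± 26.3 CPM in ASO against 226 ± 30.1 CPM in NC (edgeR adjusted p = 0.000604). NID2, a basement membrane linker between laminin and type IV collagen, rose by 0.44 on the log2 scale (edgeR adjusted p = 0.00254). LUM, the fibril-binding proteoglycan lumican, was lower, at 1.87 ± 0.289 CPM in ASO against 4.53 ± 0.907 CPM in NC (edgeR adjusted p = 0.00494).

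Receptors for collagen were higher in 5 of 13 tested genes (38.5%, beside 26.8% of all genes tested). None was lower by edgeR, DESeq2 or limma-voom, adjusted or at an unadjusted p under 0.05. Among all genes tested, edgeR called 19.1% lower. Of the 5, ITGA11 and GP6 passed the filter on low counts through the ASO libraries only. In NC libraries 1 to 3 they had 20, 8 and 26 counts and 0, 9 and 0 counts. ITGA10, the alpha chain of a collagen-binding integrin of cartilage, had 12.5, 11.45 and 11.8 CPM in ASO against 0.566, 1.18 and 0.337 CPM in NC. It rose 17.1-fold, with no NC library near the ASO libraries (log2 fold change 4.10, edgeR adjusted p = 0.000203), and the log2 fold change was 4.72 without NC library 2. ITGA11, the alpha chain of a fibroblast collagen receptor, had 2.53, 2.36 and 2.68 CPM in ASO against 0.378, 0.147 and 0.515 CPM in NC (log2 fold change 2.86, edgeR adjusted p = 0.00211). ITGA2, the alpha chain of the epithelial collagen receptor, had 11.7, 23.0 and 15.6 CPM in ASO against 6.34, 7.51 and 6.06 CPM in NC (log2 fold change 1.34, edgeR adjusted p = 0.00430). MRC2, which takes up collagen fragments, rose by 0.50 on the log2 scale (edgeR adjusted p = 0.00905). Its rise was 0.11 with the GC and length trend removed (edgeR adjusted p = 0.037).

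Degradation genes and inhibitors were higher in 7 of 19 tested genes (36.8%, beside 26.8% of all genes tested) and lower in 3 (15.8%, beside 19.1%). MMP3, among the 7, passed the filter on low counts through the ASO libraries only, with 4, 8 and 8 counts in NC. PLAU, urokinase, which activates plasmin, had 716, 628 and 686 CPM in ASO against 115, 105 and 121 CPM in NC. It rose 5.97-fold, with no overlap (edgeR adjusted p = 1.32e-06). MMP14, a membrane collagenase, rose 4.01-fold, to 6.93 ± 0.530 CPM in ASO against 1.73 ± 0.476 CPM in NC (edgeR adjusted p = 0.000692). CTSK, a lysosomal collagenase known from osteoclasts, rose 3.04-fold (edgeR adjusted p = 0.00140). MMP2, a gelatinase that MMP14 activates, rose 1.65-fold, to 519 ± 65.9 CPM in ASO against 316 ± 24.3 CPM in NC (edgeR adjusted p = 0.00157).

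**Figure D5:**
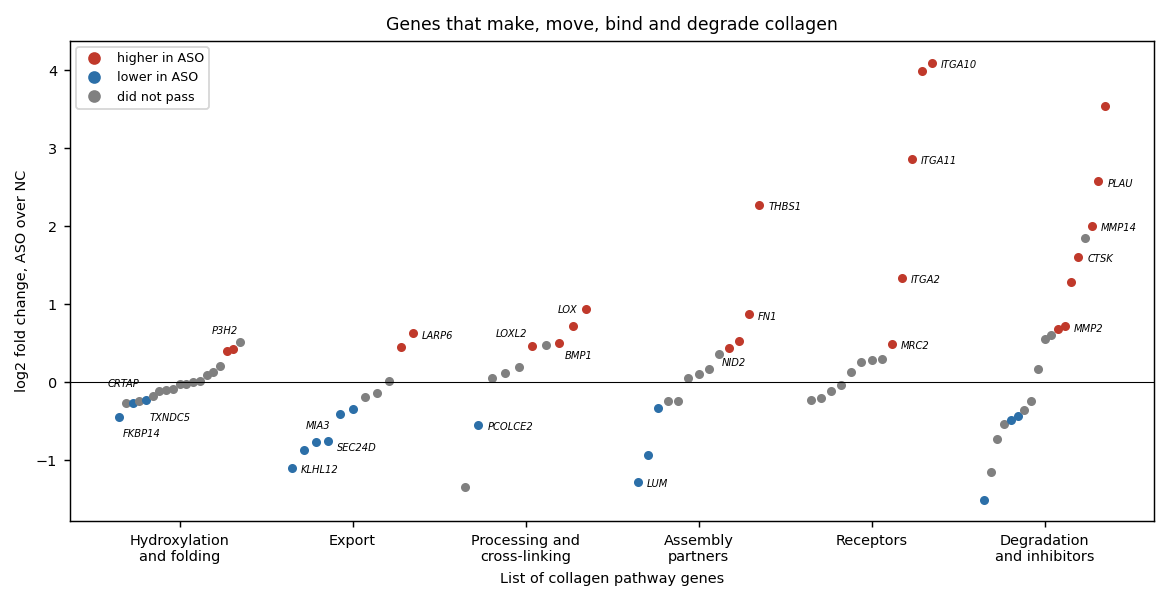
Log2 fold change, ASO over NC, of the tested genes that make, move, bind and degrade collagen, sorted within 6 lists, with colours for the edgeR call and names for up to 4 genes per list. Export genes lie mostly below 0, with 6 of 11 lower, and receptor genes have 5 of 13 higher and none lower. Of all genes tested, 26.8% were higher and 19.1% lower.

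Markers of the labelled cell type and of other cells were read from 6 lists. Of 20 colon epithelial markers, KRT8, KRT18 and ELF3 reached 10 CPM in NC, 13 were under 1 CPM in NC, and TFF3 and ESRP1 were at 0 in all libraries. By edgeR 4 of 14 tested were higher in ASO and 0 were lower, with 1 lower at an unadjusted p under 0.05 and 1 called lower by each of DESeq2 and limma-voom. The 4 had NC means under the detection limit and passed the filter on low counts through the ASO libraries only. Among all genes tested, 26.8% were higher and 19.1% lower. LGALS4 had 19.0, 15.1 and 20.1 CPM in ASO and 1 count in 1 NC library, and VIL1 had 10.9, 1.12 and 14.6 CPM in ASO against 0, 0.202 and 0 CPM in NC. MUC2 averaged 2.78 ± 1.24 CPM in ASO and 0.133 ± 0.167 CPM in NC, and KRT19 averaged 1.66 ± 0.398 CPM in ASO and 0.0503 ± 0.0872 CPM in NC. EPCAM, at 2.93 ± 0.510 CPM in ASO and 4.37 ± 1.13 CPM in NC, did not pass (edgeR adjusted p = 0.111). Of 18 fibroblast markers, 11 reached 10 CPM in NC, with VIM at 1290 ± 106 CPM in ASO and 1201 ± 82.2 CPM in NC, while PDGFRA, CDH11 and PRRX1 were at 0 in all libraries. The epithelial sum ran from 1720 to 2269 CPM in ASO and from 1994 to 2296 CPM in NC, most of it KRT8 and KRT18. Without these it ran from 81.8 to 117 CPM in ASO and from 85.3 to 96.3 CPM in NC. The fibroblast sum ran from 3189 to 3554 CPM in ASO and from 3567 to 3915 CPM in NC, with 1 of 15 tested genes higher and 6 lower in ASO. The name HCT116 rests on the labels, and the identity of the cells was not tested.

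Sums over the other marker lists were low. The endothelial sum was 17.5 to 21.9 CPM in ASO and 10.4 to 11.01 CPM in NC, with 3 of 5 tested genes higher and KDR and EMCN at 0. The leukocyte sum was 19.2 to 23.0 CPM in ASO and 2.89 to 4.21 CPM in NC, with 4 of 5 tested genes higher and PTPRC and CD3E at 0. The chondrocyte sum was 13.2 to 14.8 CPM in ASO and 3.16 to 5.39 CPM in NC, with 2 of 3 tested genes higher and HAPLN1 at 0. Within it SOX9, a cartilage and gut transcription factor, had 11.3 ± 0.291 CPM in ASO and 3.75 ± 0.925 CPM in NC. The muscle and adipose sum was 11.1 to 15.2 CPM in ASO and 10.7 to 11.9 CPM in NC, with 3 of 4 tested genes higher, 1 lower and FABP4 at 0. Among all genes tested, 26.8% were higher and 19.1% lower. Of the higher markers, ERG, CLDN5, CD14, CD79A, MATN1, PLIN1 and ADIPOQ passed the filter on low counts through the ASO libraries only. The part of these marker lists in the collagen differences was not tested.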

How the data were processed

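Total RNA of 6 libraries, 3 ASO and 3 NC, was sequenced by the authors, who deposited 1 table of estimated counts per gene, not scaled to depth, in whole numbers. Per the submitters' processing notes, hg38 was the build and StringTie, STAR, FastQC and DESeq2 were used. Annotation release, strand setting and the handling of multi-mapped reads are not given in the sources. The table had 0 columns of other samples.

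From these deposited values, edgeR 4.0.16 (R 4.3.3) gave the tests: filterByExpr (minimum count 10, total 15) kept 14062 of 19655 genes, followed by TMM scaling, the robust quasi-likelihood test on all 6 libraries without a replicate block, and Benjamini-Hochberg adjustment over those genes, called at 0.05. On simulated data it recovered 68% of 100 genes changed by 1 on the log2 scale and 97% of 100 changed by 2, with 5.17% false calls. Changed genes were drawn only from those above a minimum mean count, and no GC trend was simulated. Far fewer genes were changed than the 46.0% called in ASO against NC, so these rates may not hold for these data or for low-count collagens. Alternatives were RLE, upper-quartile and total scaling, no filter, a mean-count filter, DESeq2 1.42.0, limma-voom (limma 3.58.1), a replicate block, a GC and length trend as offset, both together, counts divided by 4, and each library left out. Lengths, GC and exons came from GENCODE 29 (99.3% of genes matched), promoters from RefSeq for 32 of 44 collagens.

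Collagens at 1 CPM or more in either group are given in full, and per pathway list the 4 called genes with the smallest p at 1 CPM or more on average. Neighbours within 5 kb upstream and EIF4A1 were named outside this rule. Members and lists were chosen with earlier results of these data known. Intervals and detection limits cover counting error only.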

Additional observations from a re-analysis of the deposited data

How the results depend on the processing

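Of the 19 higher and 4 lower collagen calls, 15 and 1 held under every alternative setting in which the gene was tested. There were 17 such settings, and COL6A6, among the 15, was tested in 16 of them. The number of collagens called higher was 16 to 20 with 1 library left out, and that of collagens called lower was 1 to 4, of network collagens 1 to 2 and of other collagens 0 to 2. All genes called lower ranged from 1755 to 3199 on leaving out a library, with 1764 without ASO library 3 and 1755 without NC library 1. With the GC and length trend removed, alone or with the replicate block, 9 collagens, 1 fibrillar, 4 network and 4 other, were lower, and the pathway genes had 28 lower with the trend alone. Other collagens called lower numbered 1 with no filter, with the replicate block and with counts divided by 4. The direction of genes that did not pass changed in some settings, in log2 units. COL6A1 was at 0.0001 with RLE scaling and with DESeq2, 0.0068 with counts divided by 4 and -0.10 to 0.0721 with a library left out. With the trend removed, without and with the block, COL4A2 was at -0.0986 and -0.0987 and COL16A1 at -0.1171 and -0.1182. COL25A1 was at 0.0026 with limma-voom and -0.71 to 0.45 with a library left out. Leaving out a library gave -0.0931 to 0.0012 for COL12A1, -0.40 to 0.60 for COL8A1, -0.52 to 2.79 for COL14A1 and -0.0359 to 0.0144 for the COL4A5 to COL4A6 ratio. The cause was not tested. With the replicate block, 21 collagens were higher and 4 lower, and 3924 and 3494 of all genes. The labels do not say that equal numbers share a culture or day: same-numbered libraries correlated at 0.103, 0.353 and 0.0893 in their deviations over 12092 genes, and not every library correlated best with its own number. Depth limits the 15 collagens under 1 CPM in both groups, of which 5 were tested.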
